A study of Mus musculus with 36 samples.

Results

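Uninfected mouse embryonic fibroblasts kept with 1% dimethyl sulfoxide (DMSO) were compared between day 21 and day 7 of culture. The comparison rests on 6 libraries, 3 of each day, out of the 36 libraries of the series and the 18 of its uninfected arm, chosen by their labels for arm, treatment and day. DMSO is a polar solvent that is widely used to carry drugs and, at this concentration, to alter the differentiation of cultured cells. Every library came from fibroblasts of embryos at embryonic day 12.5 to 13.5, from a strain in which mCherry is driven by the promoter of Myh6, a myosin gene of cardiac muscle cells. All cells were grown in StemPro34 serum-free medium with 10 ng/mL FGF2, 50 ng/mL FGF10 and 5 ng/mL VEGF, so the growth factors were shared by every group. Uninfected cells without DMSO at days 7 and 21, with 6 libraries, served as the untreated comparison, and the 3 DMSO libraries of day 2 are given beside them. The labels do not say on which days DMSO was added. Whether the 3 libraries of a day came from separate cultures is not stated, and the p-values therefore cover the spread between libraries only, which may be technical.

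The values are TPM, transcript abundances scaled for length, which add up to the same sum in every library and keep no read depth, so the depth is unknown. Between 16456 and 17577 genes reached 1 TPM in the 6 libraries. The 7SL RNA, a small RNA of the signal recognition particle, took 18.3 to 20.4% of TPM at day 7 and 20.9 to 25.4% at day 21, and its part in other values was not tested beyond the rescalings given below. All 15 defining fibroblast markers were above the test's minimum, among them Vim, an intermediate filament protein, at 843 to 1351 TPM and Dcn, the matrix proteoglycan decorin, at 1921 to 3446 TPM over both days. Of the 15, 3 fell and none rose, and the 3 were the collagen genes Col1a1, Col1a2 and Col3a1 described below. Called or not, 9 markers were lower and 6 higher, with a median of -0.15. The summed level of the 15, which includes these collagens, was 15520 to 17661 TPM at day 7 and 9369 to 11106 TPM at day 21. Myh6 was at or below 0.0150 TPM in all 6 libraries. Replicate 1 of day 21 stood apart from its group, with a median correlation of 0.951 to the other 2 libraries. It held the highest of the 3 day 21 values in 56.9% of all genes tested, and in 22 of 24 cholesterol genes, 20 of 22 collagens and 30 of 30 mitosis genes. Its 7SL share was 20.9%, against 25.4 and 25.3% in replicates 2 and 3. Its protein-coding share was 54.9%, against 51.2 and 50.6%. The part of these shares in the higher values of replicate 1 was not tested. Results that rest on it are given with and without it.

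Among 19979 genes tested, 299 were called at an adjusted p under 0.05 by limma, which is 1.5% of them. Of these, 90 genes rose from day 7 to day 21 (0.45%) and 209 fell (1.05%). Changes over 2-fold were seen in 41 of the genes that rose and 91 of those that fell. Of 28 gene lists, cholesterol synthesis had the most rises, 20 of 24 genes, and imprinted and fetal growth genes the most falls, 13 of 22. Fold changes are on the scale of log2(TPM + 1), which understates the change of low genes, and each is the difference of 3 libraries against 3 with its standard error (SE). The median change over all genes tested was -0.08, and 63.0% of them were lower at day 21, whether called or not. The call count was 123, 109 and 193 without day 7 replicate 1, 2 and 3, and 291, 127 and 185 without day 21 replicate 1, 2 and 3. With only the 6 compared libraries in the fit it was 41, and without untreated day 21 replicate 1, which enters the shared spread, it was 481. Rescaling by the median ratio gave 353 calls, of which 165 rose and 188 fell, and rescaling to the protein-coding total gave 385, of which 180 rose and 205 fell, against 90 and 209 on TPM as deposited.

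**Figure D1:**
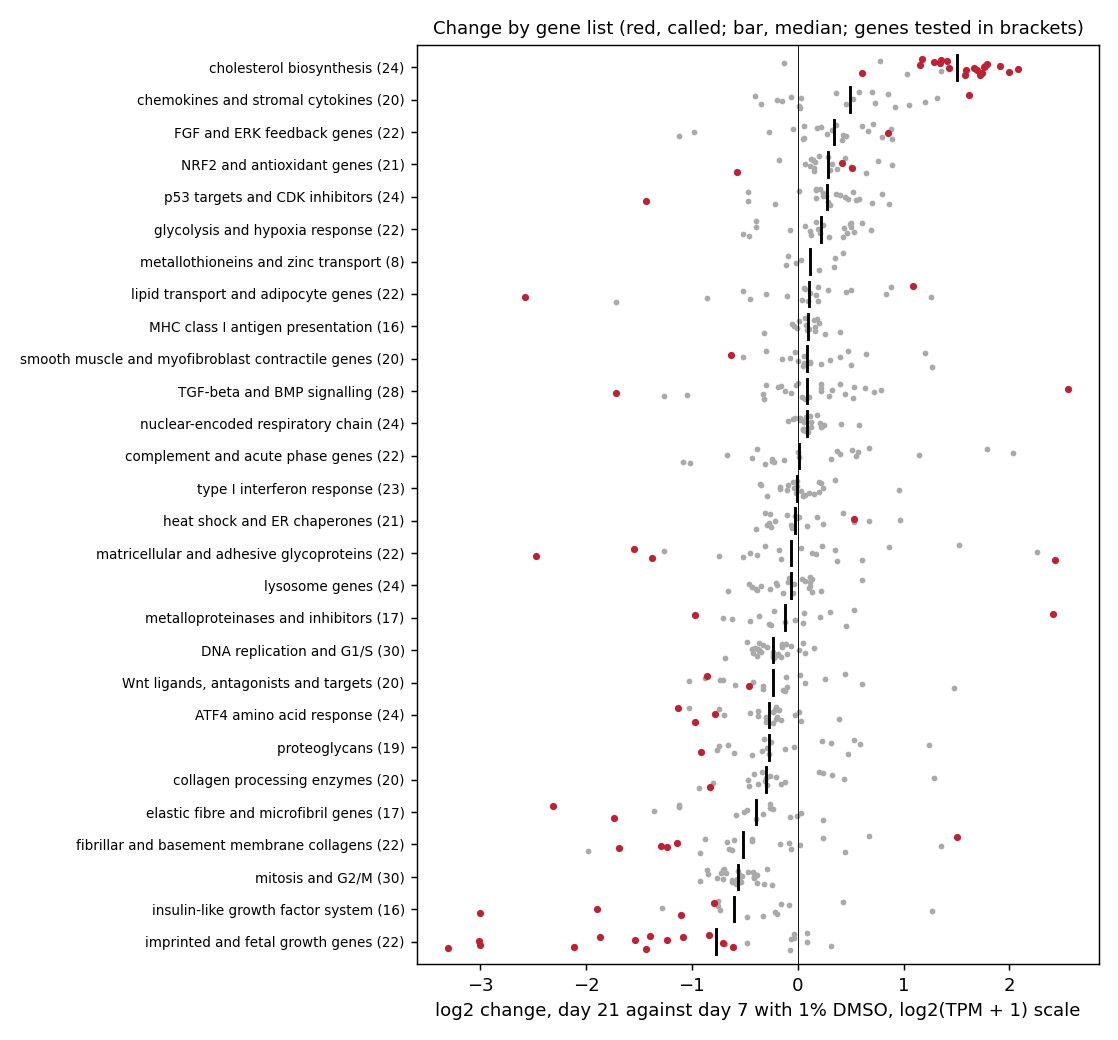
Change in log2(TPM + 1) from day 7 to day 21 with 1% DMSO for the tested genes of 28 gene lists, ordered by median, with 3 libraries a group. Each point is a gene, red points are genes called by limma at an adjusted p under 0.05, and black bars are list medians, from 1.5 for cholesterol synthesis down to -0.77 for imprinted and fetal growth genes.

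Cells make cholesterol from acetyl-CoA through the mevalonate pathway and then through squalene and lanosterol. When sterols run low in the endoplasmic reticulum, SREBP-2 is carried to the Golgi and cleaved, and its released part switches on nearly every enzyme of the route together with genes of sterol uptake. INSIG1 holds the precursor back when sterols are plentiful. Human fibroblasts are the cells in which much of this feedback was worked out.

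Of 24 genes on the cholesterol list, 20 rose and none fell. The median log2 change was 1.5, against -0.08 over all genes. In 23 of the 24 the 3 libraries of day 21 did not overlap those of day 7, a pattern met by 20.9% of all genes. In the other one the groups overlapped. Summed over the list, the level was 674, 709 and 558 TPM in the libraries of day 7 and 2607, 1743 and 1672 TPM in those of day 21. All 3 sums of day 21 lay above all 3 of day 7, and replicate 1 of day 21 was the highest. Without that library the median change was 1.31 and 8 of the 24 were called.

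The promoters of the pathway are shown because many of its members moved together. RefSeq windows of 300 bases, from 250 before to 50 after a start site on GRCm38.p6, were found for 16 of the 24 genes, in 19 windows. CCAAT, the box bound by NF-Y, was searched on both strands, where its other strand reads ATTGG. It stood in 16 of the 19 windows (84.2%), at least 1 for each of the 16 genes, and in 37.4% of all 32851 windows. The letters TCACNCCAC of a sterol regulatory element, also searched on both strands, were in 1 of the 19 windows, that of Hmgcs1, starting 137 bases before the start site, and in 1.24% of all windows. The 2 motifs do not overlap in the windows printed. A match of letters is not a site, and a window without one says nothing about binding. Below are Idi1 and Msmo1, the 2 members with the largest rises among those with a window, and Hmgcs1 for its sterol-type letters. Capitals mark the matches of both motifs.
Idi1 promoter, chr13:8885356-8885655, plus strand: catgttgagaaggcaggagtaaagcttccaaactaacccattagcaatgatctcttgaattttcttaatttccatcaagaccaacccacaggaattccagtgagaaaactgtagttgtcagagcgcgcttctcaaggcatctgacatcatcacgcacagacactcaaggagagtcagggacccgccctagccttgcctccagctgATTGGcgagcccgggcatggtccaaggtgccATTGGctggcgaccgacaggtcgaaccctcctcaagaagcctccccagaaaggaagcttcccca
Msmo1 promoter, chr8:64733529-64733828, minus strand: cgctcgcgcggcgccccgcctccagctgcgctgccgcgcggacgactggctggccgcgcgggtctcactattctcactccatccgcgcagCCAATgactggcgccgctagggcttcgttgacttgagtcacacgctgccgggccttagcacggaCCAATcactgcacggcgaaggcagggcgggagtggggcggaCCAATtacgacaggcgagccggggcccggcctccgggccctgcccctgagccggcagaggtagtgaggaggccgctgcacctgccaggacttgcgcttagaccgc
Hmgcs1 promoter, chr13:119690101-119690400, plus strand: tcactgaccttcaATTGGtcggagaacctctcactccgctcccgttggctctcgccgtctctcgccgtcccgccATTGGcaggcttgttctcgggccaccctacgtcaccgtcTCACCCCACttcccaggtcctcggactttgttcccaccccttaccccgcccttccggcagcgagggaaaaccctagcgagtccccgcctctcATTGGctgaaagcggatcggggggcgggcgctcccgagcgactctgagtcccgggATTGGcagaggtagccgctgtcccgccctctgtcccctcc

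The early steps lead to isoprenoids. Hmgcs1, which makes HMG-CoA, was at 69.1, 74.9 and 55.3 TPM at day 7 and at 274, 203 and 180 TPM at day 21. Every day 21 library was above every day 7 library, a rise of 1.69 on the log2 scale (SE 0.29, limma adjusted p = 0.0093, n = 3 against 3). Pmvk, the phosphomevalonate kinase, varied little at day 7, at 6.65, 6.22 and 6.49 TPM, and was at 25.2, 15.4 and 14.9 TPM at day 21. Its rise was 1.35 (SE 0.20, limma adjusted p = 0.0040). Mvk and Mvd, the kinase and the decarboxylase on either side of it, rose by 1.16 (SE 0.24) and 1.77 (SE 0.37).

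Idi1, which isomerises isopentenyl diphosphate, was at 24.1, 20.8 and 19.8 TPM at day 7 and at 121, 90.9 and 76.2 TPM at day 21. The rise of 2.08 (SE 0.44, limma adjusted p = 0.029), about 4.24-fold, was the largest on the list. Fdps, the farnesyl diphosphate synthase that feeds both sterols and protein prenylation, was at 58.4, 59.9 and 44.8 TPM and then 316, 176 and 186 TPM. It rose by 2.0 (SE 0.43, limma adjusted p = 0.032), with replicate 1 of day 21 far above the other 2 libraries. The calls of Idi1, Fdps and Mvd were each lost without any 1 of the 6 libraries, with adjusted p up to 0.10, 0.097 and 0.094 by limma.

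The later steps make squalene and then remodel lanosterol. Fdft1, the squalene synthase, rose by 1.74 (SE 0.31), Sqle, the epoxidase, by 1.41 (SE 0.31), and Lss, the cyclase, by 1.76 (SE 0.36). Msmo1, the sterol C4-methyl oxidase, was at 63.2, 67.9 and 52.1 TPM at day 7 and at 271, 213 and 215 TPM at day 21. Neither group spread much, and the rise of 1.92 (SE 0.29, limma adjusted p = 0.0046) was called without any 1 library, with adjusted p up to 0.022. Nsdhl, the next enzyme of C4 demethylation, was at 17.6, 17.1 and 11.5 TPM and then 66.7, 47.1 and 51.8 TPM. It rose by 1.79 (SE 0.31, limma adjusted p = 0.0098), and its partner Hsd17b7 by 1.59 (SE 0.33). Sc5d, the sterol C5 desaturase, gave the smallest adjusted p of the list: its 33.5, 36.5 and 36.7 TPM became 111, 75.1 and 81.3 TPM, a rise of 1.28 (SE 0.17, limma adjusted p = 0.0020). Ebp, the sterol isomerase, rose least, by 0.61 (SE 0.14). Lss lost its call without day 7 replicate 1 or 3 or day 21 replicate 1 or 3, with adjusted p up to 0.090. Dhcr7, a reductase at the end of the route, had a log2 difference of 1.03 (SE 0.29) and an adjusted p of 0.10 by limma.

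Regulators and carriers were not all called. Insig1 was at 66.3, 74.0 and 64.7 TPM at day 7 and at 194, 203 and 161 TPM at day 21, with replicate 1 within the range of the other 2. It rose by 1.43 (SE 0.22, limma adjusted p = 0.0049). Stard4, a carrier of sterol between membranes, rose by 1.35 (SE 0.31). Srebf2, which encodes SREBP-2, was at 25.8, 34.6 and 22.0 TPM and then 72.0, 37.5 and 38.7 TPM. Its log2 difference of 0.78 (SE 0.24) was not called (limma adjusted p = 0.13), and replicate 1 of day 21 was again the highest. The number of members called was 8, 9 and 8 without day 7 replicate 1, 2 and 3, and 8, 10 and 12 without day 21 replicate 1, 2 and 3. It was 3 with only the compared libraries in the fit.

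**Figure D2:**
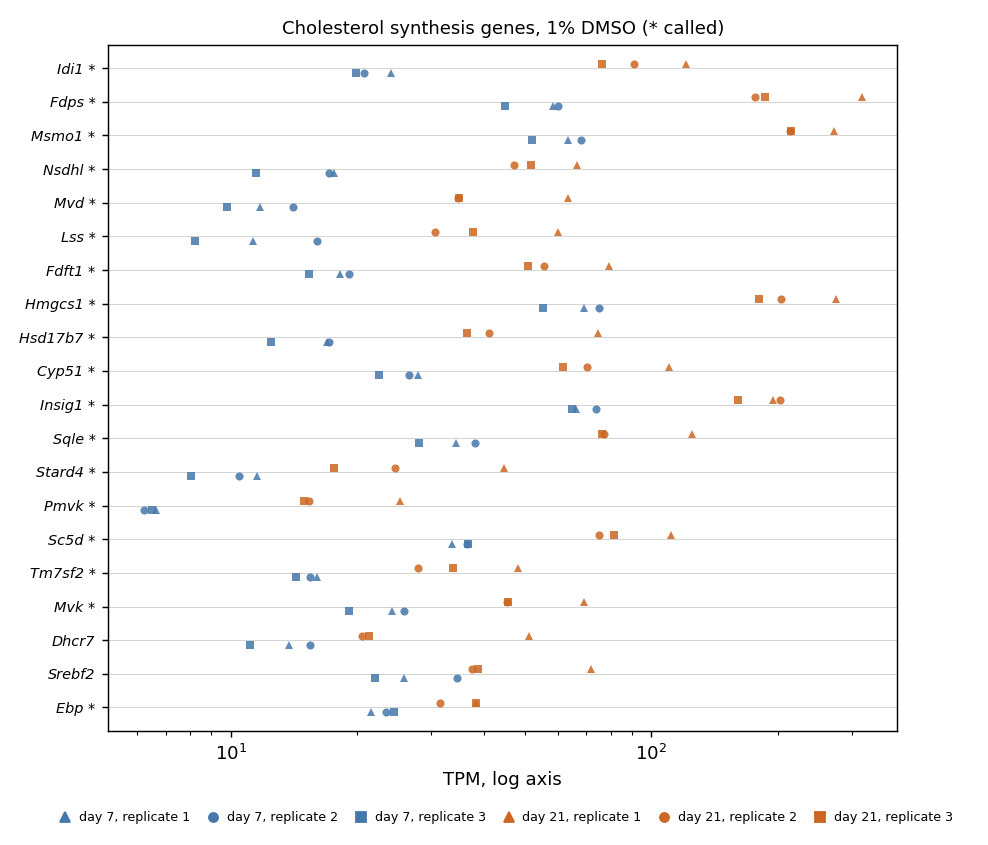
TPM of 20 of the 24 cholesterol genes in each library with 1% DMSO, on a log axis, with day 7 in blue, day 21 in orange and replicates by symbol. Genes are ordered by their change, stars mark genes called by limma, and the day 21 libraries lie above those of day 7 without overlap in every gene shown.

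Other lipid genes did not share one direction. Apoe, the lipoprotein that carries lipids out of cells, was at 51.7, 52.1 and 37.5 TPM at day 7 and at 5.77, 6.26 and 9.41 TPM at day 21. All libraries of day 21 were far below those of day 7, a fall of 2.57 on the log2 scale (SE 0.27, limma adjusted p = 0.00021), which is 5.95-fold. Abca1, which exports cholesterol to apolipoproteins, was at 45.0, 49.2 and 61.0 TPM and then 7.19, 20.6 and 21.7 TPM, but the log2 difference of -1.72 (SE 0.53) was not called (limma adjusted p = 0.14). Scd2, a stearoyl-CoA desaturase, was at 101, 108 and 90.9 TPM and then 288, 182 and 186 TPM, a rise of 1.09 (SE 0.22, limma adjusted p = 0.026). On the list of lipid transport and adipocyte genes these were 1 rise and 1 fall among 22 tested, with a median of 0.10. Vldlr, the very low density lipoprotein receptor, which stands on the list of ATF4 targets, fell by 1.13 (SE 0.21, limma adjusted p = 0.013). Scd2 lost its call without any 1 day 7 library or day 21 replicate 1, and Vldlr without day 7 replicate 2 or 3, with adjusted p up to 0.085 and 0.064.

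Imprinted genes are expressed from 1 parental copy and many of them regulate growth of the fetus. Several, such as Igf2, H19 and Dlk1, are high in embryonic tissue and are known to decline after birth in a shared network. On this list 13 of 22 tested genes fell and none rose, with a median of -0.77. One more, Lin28b, was under the minimum. The summed level was 5002, 4876 and 3884 TPM at day 7 and 1847, 1578 and 1388 TPM at day 21. The sums of day 21 were all below the lowest of day 7. The count of falls was 10 to 13 without any 1 of the 6 libraries, 15 without both replicate 1 libraries of day 21, and 4 with only the compared libraries in the fit.

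Igf2, the fetal insulin-like growth factor, was at 429, 595 and 391 TPM at day 7 and at 57.4, 66.9 and 48.5 TPM at day 21. The groups lay far apart, with a fall of 3.0 (SE 0.19, limma adjusted p = 1.6e-06), about 8.0-fold. Its level with DMSO at day 2 had been 1566, 2151 and 1828 TPM. H19, the noncoding RNA transcribed beside Igf2 from the other parental copy, was at 1161, 1264 and 954 TPM and then 347, 322 and 153 TPM. It fell by 2.11 (SE 0.32, limma adjusted p = 0.0046), with replicate 3 of day 21 the lowest.

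Dlk1, a membrane protein that holds back adipocyte differentiation, was at 624, 565 and 386 TPM at day 7 and at 77.6, 48.4 and 35.9 TPM at day 21. Its fall of 3.3 (SE 0.24, limma adjusted p = 5.2e-06), 9.85-fold, was the largest of any listed gene. Meg3 and Rtl1, a noncoding RNA and a retrotransposon-derived gene of the same imprinted region, fell by 1.23 (SE 0.20) and 0.84 (SE 0.12). Mdk, the heparin-binding growth factor midkine, was at 15.2, 18.6 and 11.2 TPM at day 7 and at 0.893, 1.16 and 0.819 TPM at day 21. The day 21 libraries were near 1 TPM and close to each other, a fall of 3.01 (SE 0.18, limma adjusted p = 1.6e-06). Its relative Ptn, pleiotrophin, fell by 1.40 (SE 0.16, limma adjusted p = 0.00064).

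Plagl1, a zinc finger factor of the imprinted network, was at 322, 249 and 206 TPM and then 79.1, 65.0 and 64.2 TPM, a fall of 1.87 (SE 0.21, limma adjusted p = 0.00064). The day 21 libraries were nearly equal and well below day 7. Cdkn1c, the imprinted cyclin-dependent kinase inhibitor p57, was at 164, 125 and 134 TPM and then 38.7, 63.9 and 54.3 TPM. It fell by 1.43 (SE 0.24, limma adjusted p = 0.0084), and here replicate 1 was the lowest of day 21. Mest, Peg3 and Grb10 fell by 1.54 (SE 0.28), 1.08 (SE 0.20) and 0.61 (SE 0.09). Of the 3 insulin-like growth factor mRNA-binding proteins, Igf2bp3 fell by 0.70 (SE 0.13), and Igf2bp1 and Igf2bp2 had log2 differences of -0.69 (SE 0.19) and -0.48 (SE 0.12) that were not called. Ndn and Sgce, which are imprinted as well, had differences of -0.06 (SE 0.14) and -0.04 (SE 0.08). Hmga2, a chromatin protein of fetal cells, was at 4.55, 5.57 and 3.73 TPM and then 19.2, 4.03 and 2.29 TPM, so 1 library alone set its mean.

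Insulin-like growth factors act through IGF1R and IRS adaptors and are held by binding proteins outside the cell. Of 16 tested genes of the system 4 fell, with a median of -0.60. Beside Igf2, Igf1 went from 31.9, 27.0 and 26.6 TPM to 13.1, 13.3 and 11.5 TPM, a fall of 1.11 (SE 0.22, limma adjusted p = 0.023). Igfbp4, a binding protein that restrains both ligands, was at 158, 123 and 123 TPM and then 39.4, 33.0 and 33.5 TPM. The spread within each day was small beside the fall of 1.89 (SE 0.23, limma adjusted p = 0.00080). Irs1, the adaptor below the receptor, fell by 0.79 (SE 0.16, limma adjusted p = 0.025). The receptors Igf1r and Insr had differences of -0.19 (SE 0.22) and -0.16 (SE 0.18). The count of falls was 2 without any 1 day 7 library or day 21 replicate 2 or 3. Igfbp2 was at 92.0, 44.7 and 30.7 TPM and then 163, 112 and 101 TPM, a difference of 1.27 (SE 0.30) that just missed the test (limma adjusted p = 0.053).

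**Figure D3:**
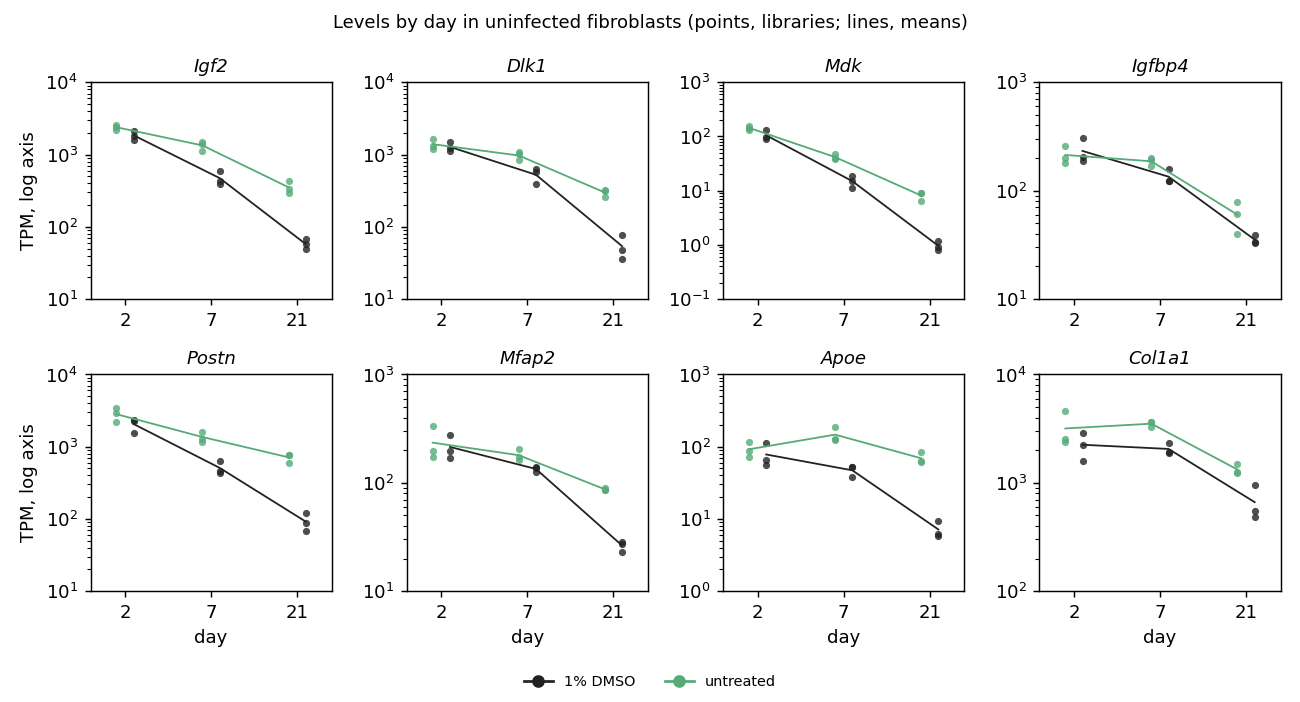
TPM on a log axis at days 2, 7 and 21 for 8 genes in uninfected fibroblasts with 1% DMSO (black) and untreated (green). Points are libraries, 3 in each group, and lines join means. With DMSO all 8 genes were lower at day 21 than at day 7 without overlap, Igf2 from 391 to 595 TPM down to 48.5 to 66.9 TPM.

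Fibroblasts build connective tissue from fibrillar collagens, elastic fibres and the matricellular proteins that tune their contacts. Of 22 tested collagens 4 fell and 1 rose, with a median of -0.52. Col1a1, a chain of type I collagen, was at 1870, 2353 and 1937 TPM at day 7 and at 955, 550 and 483 TPM at day 21. The fall of 1.69 (SE 0.28, limma adjusted p = 0.0077) held in all 3 libraries, replicate 1 least of all. Col1a2, the other chain, fell by 1.24 (SE 0.20, limma adjusted p = 0.0074). Col3a1, type III collagen, was at 5395, 5816 and 5281 TPM and then 2794, 2024 and 1978 TPM, a fall of 1.30 (SE 0.20, limma adjusted p = 0.0055). Col5a1, a chain that limits fibril width, fell by 1.14 (SE 0.25, limma adjusted p = 0.035).

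The chain that rose was Col8a1, of a network collagen of vessel walls and the cornea, from 41.3, 51.1 and 35.2 TPM to 223, 111 and 71.3 TPM. Its libraries did not overlap, and the rise was 1.5 (SE 0.31, limma adjusted p = 0.026). That call was lost without any 1 day 7 library or day 21 replicate 2, with adjusted p up to 0.091. Basement membrane collagen split by library: Col4a1 was at 817, 957 and 810 TPM and then 1537, 671 and 642 TPM, above day 7 in replicate 1 of day 21 and below it in the other 2. The median was -0.19 without day 21 replicate 2 and -0.25 without day 21 replicate 3. The falls numbered 3 without any 1 day 7 library or day 21 replicate 2 or 3. Without replicate 1 of day 21, 6 collagens fell, with a median of -0.86. Without both replicate 1 libraries of day 21 in the fit 8 fell. With only the compared libraries in the fit no collagen was called.

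**Figure D4:**
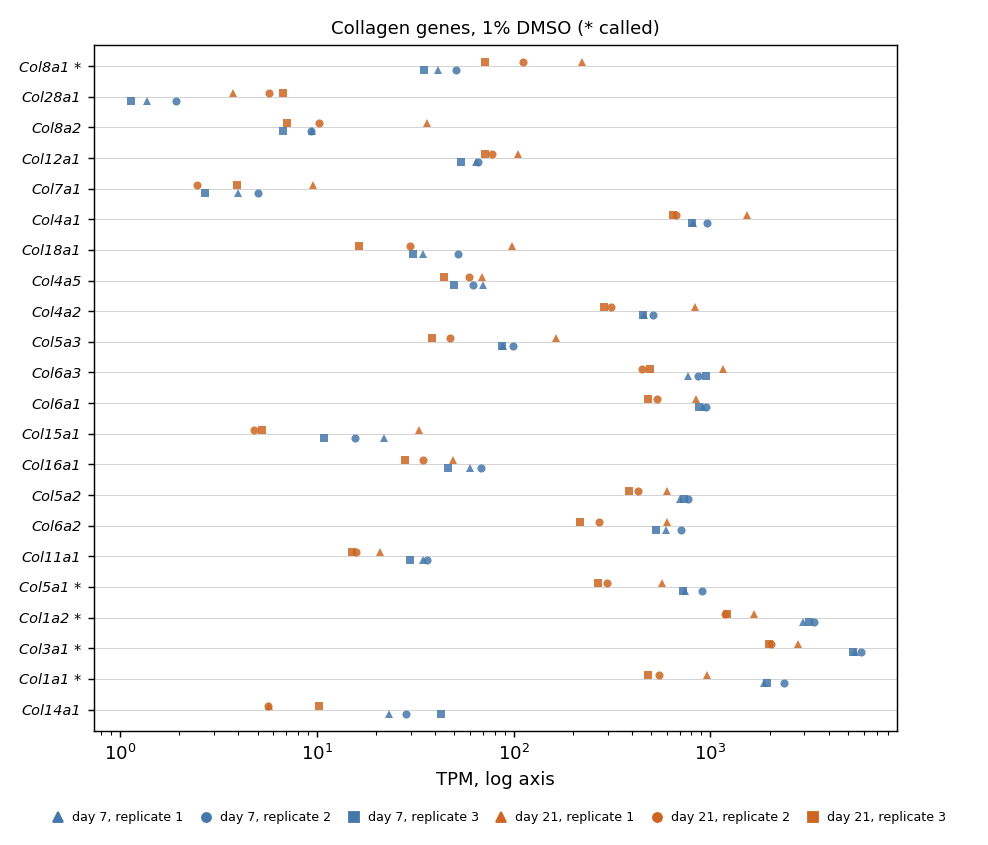
TPM of 22 collagen genes in each library with 1% DMSO, on a log axis, with day 7 in blue, day 21 in orange and replicates by symbol. Stars mark the 5 genes called by limma, and the triangle of day 21, replicate 1, is the highest of its day in 20 of the 22.

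Among matricellular and adhesive glycoproteins 3 of 22 tested fell and 1 rose, with a median of -0.06. Postn, periostin, which crosslinks collagen and marks active fibroblasts, was at 458, 634 and 434 TPM at day 7 and at 86.9, 120 and 67.9 TPM at day 21. The day 21 libraries lay far below those of day 7, and the fall was 2.48 (SE 0.24, limma adjusted p = 0.00010). Matn2, matrilin-2, and Thbs3, thrombospondin-3, fell by 1.37 (SE 0.17) and 1.55 (SE 0.23). Ctgf, a matricellular target of YAP and TGF-beta also called CCN2, moved the other way, from 43.7, 27.8 and 26.8 TPM to 403, 168 and 80.7 TPM. All 3 libraries were above day 7 but spread widely, replicate 1 highest, and the rise was 2.43 (SE 0.47, limma adjusted p = 0.017). Without day 7 replicate 2 or 3 or day 21 replicate 2 it was not called, with adjusted p up to 0.076. Fn1, fibronectin, had a difference of -0.15 (SE 0.21).

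Elastic fibre genes were lower in 15 of 17 tested, and 2 of them fell, with a median of -0.40. Mfap2, a microfibril glycoprotein, was at 141, 136 and 125 TPM at day 7 and at 23.2, 28.6 and 27.3 TPM at day 21. Both groups were tight, and it fell by 2.31 (SE 0.21, limma adjusted p = 5.3e-05). Eln, elastin itself, was at 53.6, 57.1 and 28.2 TPM and then 16, 11.9 and 10.4 TPM, a fall of 1.74 (SE 0.31, limma adjusted p = 0.012). Its call was lost without day 7 replicate 1 or 2 or day 21 replicate 2 or 3, with adjusted p up to 0.067. The fibrillin gene Fbn2, of embryonic microfibrils, had a difference of -1.35 (SE 0.39) that was not called (limma adjusted p = 0.11).

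Among 17 tested metalloproteinases and inhibitors 1 rose and 1 fell. Mmp3, stromelysin, which cleaves many matrix proteins, was at 10.3, 8.56 and 11.8 TPM at day 7 and at 84.8, 51.1 and 46.1 TPM at day 21. The libraries did not overlap, and the rise was 2.42 (SE 0.45, limma adjusted p = 0.015). Mmp23, a membrane-bound family member, fell by 0.97 (SE 0.17, limma adjusted p = 0.012). Bmp1, which trims procollagen, was the 1 gene called among 20 collagen processing enzymes and fell by 0.83 (SE 0.18, limma adjusted p = 0.035). The glypican Gpc1 was the 1 called among 19 proteoglycans and fell by 0.91 (SE 0.17, limma adjusted p = 0.015). Leaving out 1 library ended the call of Mmp3 (replicate 1 or 2 of either day), Mmp23 (day 7 replicate 2), Gpc1 (day 7 replicate 2 or 3, day 21 replicate 2) and Bmp1 (any of the 6), with adjusted p up to 0.071, 0.059, 0.069 and 0.14.

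Signalling lists had few calls. Of 28 tested TGF-beta and BMP genes 1 rose and 1 fell, with a median of 0.09. Of 20 tested Wnt genes Wnt5a, a noncanonical ligand, fell by 0.86 (SE 0.16) and Lgr4, an R-spondin receptor, by 0.46 (SE 0.08). Calls were lost for Wnt5a without replicate 1 or 2 of day 7 or 2 or 3 of day 21, and for Lgr4 without replicate 1 or 2 of day 7 or 2 of day 21. Their adjusted p reached 0.086 and 0.062.

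Of 22 tested FGF and ERK feedback genes only Fgf7, a paracrine FGF of mesenchyme, was called, with a rise of 0.86 (SE 0.19, limma adjusted p = 0.039). That call was lost without any 1 library other than day 21 replicate 1, with adjusted p up to 0.16. Spry4, an inhibitor that ERK signalling induces, was at 17.0, 12.5 and 12.3 TPM and then 102, 16.9 and 6.72 TPM. Replicate 1 of day 21 was high. Of the other 2 libraries, that at 16.9 TPM lay within the day 7 range and that at 6.72 TPM below it. Contractile genes of smooth muscle and myofibroblasts had 1 fall among 20 tested, Smtn, smoothelin, by 0.63 (SE 0.09, limma adjusted p = 0.0031). Acta2, smooth muscle actin, was at 6.70, 6.03 and 8.45 TPM and then 17.8, 21.2 and 16.2 TPM, a difference of 1.27 (SE 0.40) that was not called (limma adjusted p = 0.15).

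All 30 mitosis genes were lower at day 21, with a median of -0.56, but none was called. Top2a, the topoisomerase of chromosome segregation, was at 22.2, 25.5 and 10.4 TPM and then 20.1, 9.44 and 6.38 TPM, so the groups overlapped. The summed level of the list was 190, 214 and 100 TPM at day 7 and 157, 89.3 and 61.9 TPM at day 21. Without replicate 1 of day 21 the median was -0.84 and still no gene was called, and without day 7 replicate 2 or day 21 replicate 3 the median was -0.38 or -0.35. Fewer dividing cells and less RNA of these genes per cell cannot be told apart in bulk samples, and the same holds for every other list. Of 30 genes of DNA replication 26 were lower and none was called. On the list of p53 targets and CDK inhibitors 20 of 24 tested were higher, with a median of 0.28. No rise was called there, and the 1 fall was the CDK inhibitor Cdkn1c. Cdkn1a, the p53-induced inhibitor p21, had a difference of 0.29 (SE 0.22).

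Among the stress lists, antioxidant and ATF4 genes had 3 calls each. Gpx1, the cytosolic glutathione peroxidase, rose by 0.51 (SE 0.09, limma adjusted p = 0.012) and Gstm2, a glutathione transferase, by 0.42 (SE 0.09, limma adjusted p = 0.039). Cat, the peroxisomal catalase, fell by 0.58 (SE 0.12, limma adjusted p = 0.025). Of 21 tested antioxidant genes 19 were higher, with a median of 0.29, and Gpx1, Gstm2 and Cat were the 3 called. Under median ratio scaling none of the 3 was called. On the ATF4 list 21 of 24 genes were lower and 3 fell. With Vldlr these were Aldh1l2, a mitochondrial folate enzyme, by 0.97 (SE 0.17) and Phgdh, the first enzyme of serine synthesis, by 0.78 (SE 0.17). Hspb8, a small heat shock protein, rose by 0.53 (SE 0.11) as the 1 call among 21 chaperones. No gene was called on the lists of glycolysis and hypoxia (22 tested), respiratory chain (24), lysosome (24), metallothioneins (8), interferon response (23), MHC class I (16) or complement (22). Il1rn, the interleukin-1 receptor antagonist, was the 1 gene called among 20 chemokines and cytokines, and went from 0.875, 1.58 and 1.39 TPM to 6.17, 6.6 and 5.15 TPM. Its rise was 1.62 (SE 0.32, limma adjusted p = 0.020). Leaving out 1 library ended the calls of Gpx1 (day 7 replicate 1, day 21 replicate 2), Aldh1l2 (replicate 2 of either day), Hspb8 (replicate 1 or 2 of either day), Gstm2 (all but day 7 replicate 3), Cat (all but day 21 replicate 2) and Il1rn (all but day 21 replicate 3). The highest adjusted p were 0.062, 0.059, 0.10, 0.16, 0.088 and 0.092.

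Outside the lists, Cntn2, an axonal adhesion protein of the immunoglobulin family, was at 1.14, 1.05 and 1.56 TPM at day 7 and at 8.52, 10.1 and 10.1 TPM at day 21, a rise of 2.23 (SE 0.33, limma adjusted p = 0.0043). Cyp4b1, a cytochrome P450, was at 14.6, 14.8 and 23.5 TPM and then 61.6, 48.8 and 79.1 TPM. It rose by 1.79 (SE 0.27, limma adjusted p = 0.0046). In both genes the libraries of the 2 days did not overlap.

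Markers of other cells differed widely in level. Of 19 macrophage and leukocyte markers 15 were tested, 12 of them were lower at day 21 with a median of -0.55, and none was called. Their summed level was 41.9 to 81.4 TPM at day 7 and 26.2 to 61.2 TPM at day 21, Lyz2, the lysozyme of myeloid cells, was at 8.2 to 36.8 TPM over both days, and none of the 19 was at 0 in all 6 libraries. The endothelial list gave 1 rise and 1 fall among 5 tested. Flt1, a VEGF receptor, went from 2.69, 4.07 and 3.66 TPM to 18.8, 8.80 and 8.39 TPM, a rise of 1.46 (SE 0.29, limma adjusted p = 0.021). Tek, the angiopoietin receptor, fell by 1.05 (SE 0.19, limma adjusted p = 0.012). The other 9 endothelial markers, among them Cdh5, were under 1 TPM in all 6 libraries. Epicardial and mesothelial markers were higher in 12 of 14 tested with none called, and their sum went from 475 to 562 TPM to 701 to 896 TPM. Of 20 skeletal and cardiac muscle markers 17 were under 1 TPM in all 6 libraries. Bone, cartilage and tendon markers, with sums of 381 to 431 TPM at day 7 and 183 to 233 TPM at day 21, gave 2 falls among 11 tested: Tnmd, tenomodulin, from 2.70, 2.51 and 3.07 TPM to 0.506, 0.695 and 1.04 TPM, and Itm2a by 1.08 (SE 0.15, limma adjusted p = 0.0026). Calls were lost for Flt1 without any 1 day 7 library or day 21 replicate 1, for Tek without day 7 replicate 2, and for Tnmd without any 1 library other than day 21 replicate 3, with adjusted p up to 0.095, 0.059 and 0.072. Of 7 neural markers and 1 epithelial marker tested none was called. The part of these cell markers in the other results was not tested.

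Some of the largest falls were in short RNA entries. A microRNA entry can hold reads of longer RNA over the precursor, and these libraries are not made to hold the mature microRNA. An entry of a small nuclear RNA can hold that RNA itself or longer RNA. The source of the reads was not tested. Of 1017 microRNA entries tested 10 fell (0.983%, near the 1.05% of all genes) and none rose. Mir503 was at 34.6, 46.5 and 23.1 TPM at day 7 and at 0, 1.64 and 8.03 TPM at day 21. Mir351, from the same cluster on the X chromosome, was at 96.2, 93.7 and 149 TPM and then 16.8, 17.1 and 27.5 TPM. Mir882, within the imprinted region of Dlk1, was at 27.8, 14.1 and 21.4 TPM and then 0, 3.38 and 3.63 TPM. In all of them the day 21 libraries lay below those of day 7, and limma's adjusted p was 0.023, 0.0027 and 0.011. Mir503 was not called without replicate 1 or 2 of either day, and Mir882 not without day 7 replicate 1, with adjusted p up to 0.10 and 0.062. Mir152 was at 10.6, 10.2 and 4.92 TPM at day 7 and was listed at 0 in every library of day 21, so no fold is given. It was not called without day 7 replicate 1 or 2 or day 21 replicate 2 or 3, with adjusted p up to 0.073, and in untreated cells its difference was 1.76 (limma adjusted p = 0.18). RefSeq places Mir503 and Mir351 inside the noncoding RNA C430049B03Rik, named here after its values were seen, which fell by 1.42 (SE 0.14, limma adjusted p = 0.00018). Mir152 lies inside Copz2, whose log2 difference was -0.36 (SE 0.10) and was not called. Reads of an entry and of its host gene cannot be told apart here. The mature sequences of the 4 are given from RefSeq on GRCm38.p6 to show which microRNAs these precursors would yield. Capitals mark the seed, bases 2 to 8, and no seed is shared.
mmu-miR-503-5p, chrX:53054027-53054049, minus strand: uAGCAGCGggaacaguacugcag
mmu-miR-351-5p, chrX:53053315-53053338, minus strand: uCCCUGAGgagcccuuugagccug
mmu-miR-882, chr12:109682207-109682228, plus strand: aGGAGAGAguuagcgcauuagu
mmu-miR-152-3p, chr11:96850439-96850459, plus strand: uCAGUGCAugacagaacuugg

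Entries of U1, the small nuclear RNA that recognises the start of introns, fell as well. Rnu1b6 was at 310, 182 and 179 TPM at day 7 and at 50.5, 52.4 and 22.8 TPM at day 21, a fall of 2.43 (SE 0.31, limma adjusted p = 0.0013). Rnu1b1 and Rnu1b2 held identical values, fell by 2.49 (SE 0.37), and cannot be told apart as near-identical copies. In all, 7 of 413 small nuclear RNA entries fell (1.69%), against 1.05% of all genes. These hold only 4 distinct sets of values, since Rnu1b6 is 1 of 3 identical entries.

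The same days in untreated cells served to ask which changes differed with DMSO. In untreated cells 230 genes were called between day 7 and day 21, 1.15% of those tested, with 88 rises and 142 falls. Of the 299 genes called with DMSO, 115 were also called in untreated cells in the same direction. The test of the difference between both changes called 1 gene (0.00501%) and none of the genes described above. The called entry, a short clone entry at 0 in every DMSO library, passed the minimum only through the untreated libraries of day 7. The difference had an unadjusted p under 0.05 for 512 genes, fewer than the 999 that evenly spread p-values would give, and the DMSO change for 2870. Why this count lay below an even spread was not tested, and the few calls do not show that the changes were alike. The fit treated same-numbered DMSO and untreated libraries as independent, and the part of this was not tested. Of the 47 named genes other than short RNAs, 46 had the same sign in untreated cells and 41 had the larger change with DMSO. These genes were chosen for their change with DMSO, so this count is a description. Over all genes tested the shares were 72.0% and 45.9%.

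Cholesterol genes were higher at day 21 in untreated cells too, with 6 of 24 called and a median of 1.14. The difference of the changes was positive for 23 of the 24, with a median of 0.37, and none was called. The share of positive differences over all genes is not given here. The members were measured in the same libraries, so the count is a description. For Idi1 the difference was 0.29, with a 95% interval from -1.03 to 1.61, and for Msmo1 it was 0.56, from -0.32 to 1.44. The list sum in untreated cells was 657, 747 and 418 TPM at day 7 and 1783, 1468 and 979 TPM at day 21.

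Imprinted and fetal growth genes had 11 falls of 22 and a median of -0.77 in untreated cells. Igf2 was at 1395, 1499.6 and 1119.8 TPM and then 290, 429 and 338 TPM without DMSO, a fall of 1.93 (limma adjusted p = 0.00021), so its levels were above those with DMSO on both days. The difference was -1.07, with a 95% interval from -1.64 to -0.50, and had an adjusted p of 0.90 by limma. For Dlk1 the difference was -1.60, from -2.33 to -0.87, and for Mdk it was -0.77, from -1.32 to -0.23, and neither was called. Postn, Mfap2 and Apoe had differences of -1.55 (-2.27 to -0.83), -1.28 (-1.90 to -0.65) and -1.51 (-2.31 to -0.71), and none was called. In untreated cells the changes of the 3 genes were -0.93, -1.03 and -1.06, and of them Mfap2 alone was called there. Il1rn was the 1 named gene of the 47 with opposite signs, at 2.04, 4.12 and 3.15 TPM and then 3.17, 3.71 and 0.778 TPM in untreated cells. Its difference was 1.92, from 0.96 to 2.87, and was not called either. The genes given with intervals here, and Idi1 and Msmo1 above, were named for their change with DMSO, which enters the difference. Their differences therefore lean the way of that change, and the intervals, which are not adjusted, are a description.

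The mitosis list had a median of 0.08 in untreated cells, and its difference was below 0 in all 30 genes with a median of -0.66 and none called. The share of differences below 0 over all genes is not given here either, so this count is a description. Without untreated day 21 replicate 1, which also stood apart from its group with a median correlation of 0.942 and was left out after the values were seen, the untreated median was -0.20 and the difference was below 0 in 28 of 30 genes with a median of -0.30. Summed, these genes were at 59.5, 57.1 and 48.9 TPM in untreated cells at day 7 and at 116, 43.8 and 32.6 TPM at day 21, below the DMSO libraries at day 7 and overlapping them at day 21. The epicardial list had a median of -0.07 in untreated cells.

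**Figure D5:**
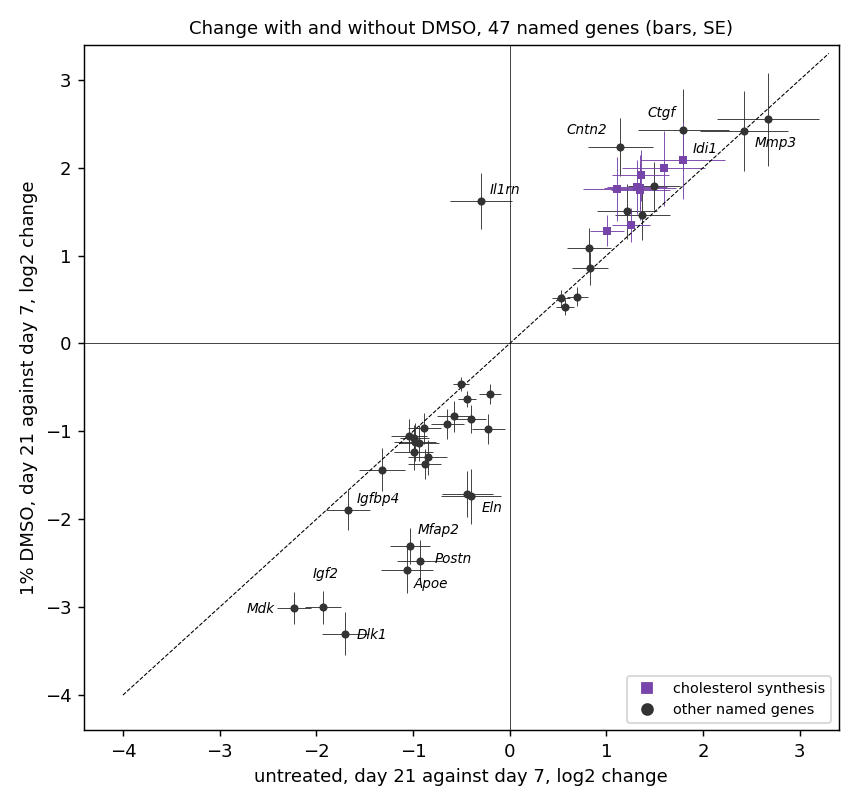
Change in log2(TPM + 1) from day 7 to day 21 in untreated cells (x axis) and with 1% DMSO (y axis) for the 47 named genes other than short RNAs, with bars of 1 SE and 3 libraries a group. The dashed line marks equal change, cholesterol genes are purple squares, and Il1rn is the 1 gene with opposite signs. Other points far from the line are Dlk1, Postn and Apoe, and none of these differences was called.

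Earlier change with DMSO is given beside these values without comparison, since the day 7 libraries enter both. From day 2 to day 7 Igf2 fell by 1.98 (limma adjusted p = 7.8e-05), Mdk by 2.74 (limma adjusted p = 5.9e-06) and Postn by 2.01 (limma adjusted p = 0.00049). Apoe, Mfap2 and Col1a2 had differences of -0.67, -0.65 and -0.05 over those days, none called. Idi1 and Msmo1 had differences of 0.88 and 0.75, not called. Cyp4b1 rose by 1.44 in the same span (limma adjusted p = 0.014).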

How the data were processed

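The authors deposited a table of TPM per gene for the 18 uninfected libraries, which was used here, and per the submitters' processing notes Trimmomatic, FastQC and kallisto were used. The genome build, the annotation and the strand setting were not given in the sources used here. RNA was extracted with TRIzol and made into TruSeq libraries, per the labels' protocols. Of 50698 entries, 97 named no gene and were left out of tests. They held 0.347 to 1.22% of TPM in the 6 libraries. Entries of 1 symbol were summed, giving 50509 symbols. TPM keeps no read depth, so no counting interval can be given.

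limma 3.58.1 in R 4.3.3 was run with a mean-variance trend on log2(TPM + 1) for 19979 genes with at least 1 TPM in at least 3 of the 18 uninfected libraries. A single model of 6 group means left 12 residual degrees of freedom. Calls are two-sided with Benjamini-Hochberg adjusted p under 0.05 over all genes, the intervals are at 95%, and the difference between the DMSO and untreated changes is a contrast of the same model. Tables and plots used Python 3.11.15, pandas 2.3.3 and matplotlib 3.10.9. The procedure was tested on simulated data. Promoter and microRNA sequences were matched by symbol to RefSeq tables.

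Named genes were the 12 largest called rises and 12 largest falls with a mean of at least 5 TPM and no overlap, without predicted genes, clones or pseudogenes, 5 of each way for the difference, and up to 2 rises and 2 falls per list. Other list members given with values were chosen after those values were seen. The members, lists and tests were chosen with earlier results of these data known. Alternatives were the pseudocount, the filter, the scaling, the trend, the samples in the fit, the replicate number as a block and leaving out libraries. A few genes of the lists are not reported here by name.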

Additional observations from a re-analysis of the deposited data

Results flagged for a closer look

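The test of the difference between the DMSO and untreated changes called 1 entry, the clone-type microRNA entry AC122546.1. The DMSO change minus the untreated change was 1.843 on the log2 scale (limma adjusted p = 0.0057). The entry was listed at 3.50, 2.60 and 1.86 TPM in the untreated libraries of day 7, and at 0 in all 3 untreated libraries of day 21 and all 6 DMSO libraries. It passed the minimum of 1 TPM in 3 libraries only through the group where it is high, which fixed the direction, and with a minimum of 5 TPM no entry was called. Every value was low, and whether these are reads of a longer RNA was not tested.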

How the results depend on the processing

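The count of genes changed with DMSO (299, of which 90 rose and 209 fell) was 196 with no filter (59 and 137), 533 with the replicate number as a block, the replicate block (172 and 361), 481 without untreated day 21 replicate 1 (141 and 340), 644 without both replicate 1 libraries of day 21 (124 and 520; chosen after seeing the data) and 41 with only the compared groups (13 and 28). Rises numbered 165 under median ratio and 180 under protein-coding scaling. Leaving out 1 of the 6 libraries gave 109 to 291 calls, 30 to 74 rises and 79 to 249 falls. Same-numbered libraries of both days had deviations correlated at 0.07, -0.03 and 0.05, and same-numbered DMSO and untreated libraries at 0.12, 0.08 and 0.15 on day 7 and 0.25, 0.02 and 0.24 on day 21. DMSO and untreated libraries of unlike number had -0.11 to -0.02 on day 7 and -0.25 to 0.08 on day 21. Not every same-numbered pair exceeded 0.1 in any of these, and the main fit did not take the numbers as pairs. On day 7, however, each same-numbered DMSO and untreated pair lay above every pair of unlike number. On day 21 the pairs at 0.25 and 0.24 did so and the pair at 0.02 did not. Whether same-numbered DMSO and untreated libraries of a day share a source was not tested, and the main fit treats them as independent. With the replicate number as a block over all days the difference count was 1, and a block within each day was not fitted. The count for the difference (1, higher) was 0 with the filter at 5 TPM, 2 under both scalings, with no trend and without untreated day 21 replicate 1 (1 higher and 1 lower each), 2 without both replicate 1 libraries (2 and 0) and 5 with only the compared groups (3 and 2), and 1 lower with a pseudocount of 0.1. Leaving out 1 library gave 1 to 3, with 1 to 2 higher and 0 to 1 lower. Of 54 named genes 25 held their call without any 1 of the 6 libraries and 9 under every setting, and none reversed: 742 gene results kept their side of the threshold and 176 lost it. The cause of these shifts was not tested.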

Other observations

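The imprinted region from Dlk1 to Mirg on chromosome 12 was lower at day 21 along most of its length. It was examined after the values of Dlk1 and Meg3 had been seen. Of 89 RefSeq genes in it 57 were tested, 55 were lower at day 21, 13 fell and none rose, with a median log2 change of -1.35. Rian, a noncoding RNA that hosts small nucleolar RNAs, was at 1015, 771 and 743 TPM at day 7 and at 498, 341 and 428 TPM at day 21. It fell by 1.00 (SE 0.16, limma adjusted p = 0.0067), with no overlap between the days. Mirg, the noncoding RNA over a microRNA cluster, fell by 0.93 (SE 0.19, limma adjusted p = 0.023). Of 40 microRNA entries tested in the region 38 were lower and 6 fell, with a median of -1.37, against -0.20 over all 1017 microRNA entries. In untreated cells 10 genes of the region fell. Entries inside a host RNA can share its reads, so they are not taken as independent of it.

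Lipid genes off the lists, picked from the called genes after their values were seen, included the rises given here. Dbi, the acyl-CoA binding protein, was at 201, 192 and 201 TPM at day 7 and at 328, 316 and 348 TPM at day 21, a rise of 0.74 (SE 0.10, limma adjusted p = 0.0023). Fads1, a fatty acid desaturase, rose by 0.93 (SE 0.17), Acss2, an acetyl-CoA synthetase, by 0.86 (SE 0.15), and Aacs, the acetoacetyl-CoA synthetase, by 1.04 (SE 0.22). Among the called falls picked in the same way were Kdelr3, a retrieval receptor for the endoplasmic reticulum, by 0.91 (SE 0.16), Rcn3, a calcium-binding protein there, by 0.64 (SE 0.10) and Sec23a, a coat protein of export vesicles, by 0.32 (SE 0.07). Agtr2, the type 2 angiotensin receptor, was at 241, 229 and 137 TPM and then 37.0, 61.4 and 33.2 TPM, a fall of 2.19 (SE 0.30, limma adjusted p = 0.0024). Pon2, a paraoxonase, rose by 1.13 (SE 0.11, limma adjusted p = 9.4e-05). Nrep, a neuronal regeneration protein, fell by 1.32 (SE 0.28) with DMSO. In untreated cells Nrep had a difference of 0.58 that was not called (limma adjusted p = 0.33). The DMSO change of Nrep minus its untreated change was -1.90 and was not called either (limma adjusted p = 0.90).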
